A study of Mus musculus with 2 samples.

Results

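The SLAM family is a group of immunoglobulin-like receptors on blood cells, and SAP, encoded by Sh2d1a, is the small SH2-domain adaptor that several of them use. The genes described here are the receptor genes Slamf1, Slamf6, Slamf7, Ly9, Cd84 and Cd244, the ligand gene Cd48 and Sh2d1a. They were taken from the count table by symbol, and all 8 were found among its 24081 genes. All 8 also had a mean of at least 20 reads over both libraries, a floor that 10899 genes passed.

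Most receptors of the family are their own ligands, so that a receptor on a T cell binds the same receptor on the cell it touches. CD48 has no cytoplasmic tail and is the ligand of 2B4, the product of Cd244, and in mice also of CD2. When engaged, the receptor tails are phosphorylated on tyrosines, and SAP binds there, brings in the kinase Fyn and keeps inhibitory phosphatases away. The pathway is known for the long contacts between T and B cells in germinal centres and for the development of natural killer T cells, and loss of SAP causes X-linked lymphoproliferative disease in humans.

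The data are 2 RNA-seq libraries of regulatory T cells (Treg cells, CD4+ T cells that express the transcription factor Foxp3 and dampen immune responses), sorted as CD4+ YFP+ cells from lymph nodes and spleen of C57BL/6 mice aged 5 weeks. All mice were Foxp3cre/wt, and YFP marked the cells in which Foxp3 drives the Cre recombinase. The library titled WT is from mice with 1 floxed allele of a targeted gene of the SUMO conjugation pathway, and the library titled KO from mice with 2 floxed alleles. So the control carried Cre and a floxed allele as well, and, because Foxp3 lies on the X chromosome, a Foxp3cre/wt mouse of either group also keeps Treg cells without Cre. Each library pooled the cells of 5 to 10 mice. With 1 library per group, no difference below has a replicate check, no p-value was computed, and the intervals cover counting error only. The genotype field of the labels names a wild type mouse for both samples, so every direction rests on the titles.

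The libraries held 11662867 (WT) and 23789264 (KO) reads in genes, so the KO library gives the narrower counting error. Levels are CPM (reads per 1000000 reads in genes) after TMM scaling, which equalises the bulk of genes between libraries. The Treg label was checked on 8 defining genes, all well counted in both libraries, among them Foxp3 with 8540 and 30579 reads and Cd4 with 23224 and 54375. Past 1.5-fold in KO against WT were Foxp3 (1.85-fold) and Lrrc32 (2.36-fold) upward and Ctla4 (1.61-fold) and Ikzf2 (1.59-fold) downward, with Ctla4 under 1.5-fold once the GC trend described next was removed. The log2 ratio of KO over WT moved with the GC content of the transcripts. The median ratio was -0.19 over the tenth of genes lowest in GC content and 0.37 in the tenth that was highest. All 8 genes described here lay under the median GC content of 49.9%, from 39.3% for Cd84 to 48.8% for Ly9. Ratios after removal of a smooth trend along GC content and length are therefore given beside the scaled ones.

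The KO library held less RNA of the family as a whole and of SAP. Summed over the 8 genes, 10411 WT reads and 16587 KO reads gave 869 and 716 CPM, a level 1.21-fold lower in the KO library (interval 1.18 to 1.24). Slamf7 was 1.80-fold lower and Sh2d1a 1.54-fold lower, Slamf6 followed at 1.41-fold lower, and Ly9, Cd84 and Slamf1 were between 1.15-fold and 1.21-fold lower. Cd48 and Cd244 could not be told from equal at this depth. In a pool of sorted cells, fewer cells that express a gene and less of its RNA per cell cannot be told apart.

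**Figure D1:**
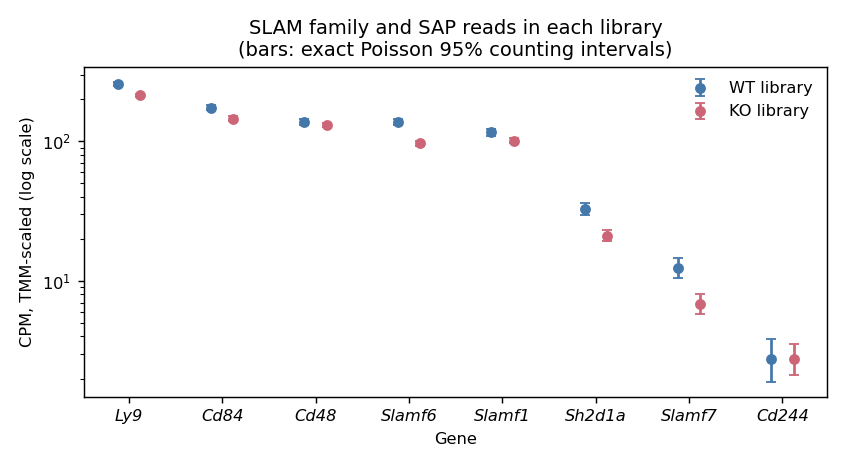
TMM-scaled CPM (log axis) of each gene in WT (blue) and KO (red), with exact Poisson 95% counting intervals. Points are to be compared within a gene, since reads also grow with transcript length. The intervals of the libraries lie apart for the genes from Ly9 to Slamf7, except Cd48 (131 to 145 in WT, 126 to 135 in KO), and overlap for Cd244.

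Of the 8 genes, 2 were at least 1.5-fold lower and none was at least 1.5-fold higher on the log2 ratio with a pseudocount of 1. Over all 10899 genes with enough reads, 5.51% were at least 1.5-fold lower and 7.43% at least 1.5-fold higher. As scaled, the counting interval lay wholly below equality for 6 of the 8 genes and wholly above it for none. The shares over all genes were 25.6% and 29.1%. These are not like for like, since intervals narrow with reads. Slamf1, Slamf6, Cd84 and Ly9 each stood above at least 81% of all genes in WT level. The median log2 ratio of the 8 genes was -0.27, beside 0.01 over all genes, and 7 of the 8 ratios were below 0, beside 48.6% of all genes. After removal of the GC and length trend the median was -0.15, 6 of the ratios were below 0, and 1 gene, Slamf7, was at least 1.5-fold lower. The shares over the 10853 genes with a GC value were then 5.82% lower and 4.01% higher.

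**Figure D2:**
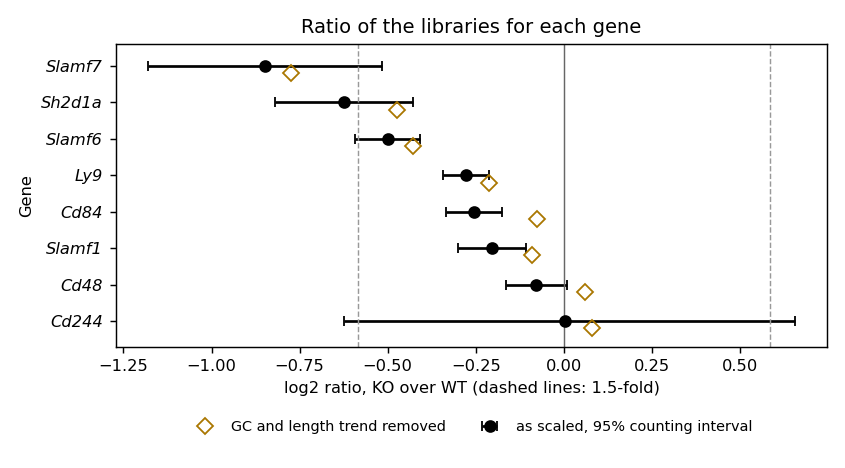
Log2 ratio of KO over WT for each gene, ordered from the lowest. Filled points are scaled ratios without a pseudocount, with exact 95% counting intervals, open diamonds are ratios (with the pseudocount) after removal of the GC and length trend, and dashed lines mark 1.5-fold. Slamf7, Sh2d1a and Slamf6 stay farthest left on both scales, and the diamonds of Cd48 (0.06) and Cd244 (0.08) lie right of 0.

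**Figure D3:**
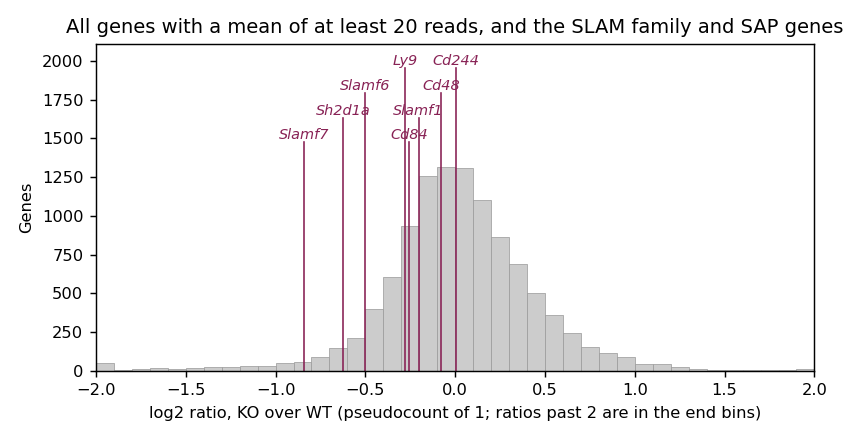
Histogram of the log2 ratios of all 10899 genes with a mean of at least 20 reads, in bins of 0.1, with the 8 genes marked. The end bins also hold the 44 genes below -2 and the 8 genes at or above 2. Slamf7 (-0.84) and Sh2d1a (-0.62) lie in the left flank, and Cd244 (0.00) lies at the middle.

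Slamf7 encodes CRACC, a self-binding receptor of NK cells, plasma cells and activated lymphocytes that works with the SAP-related adaptor EAT-2 and not with SAP itself. Its gene body spans chromosome 1, 171632403 to 171653035 (mm10), on the minus strand. It had 148 reads in WT and 159 in KO, or 12.4 and 6.86 CPM. The KO library was therefore the lower one despite its greater depth, by 1.80-fold (interval 1.43 to 2.27). Of all genes with enough reads, 2.90% had a lower ratio. Genes within 1 percentage point of its GC content (46.0%) had a median log2 ratio of -0.07, far from the -0.84 of Slamf7, which was at -0.78 with the trend removed. Its exons overlap 423 bases of an antisense RNA gene, Gm37787, and the strand setting of the counting is not known from the sources used.

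The Slamf7 reads were few, and the cells known for high Slamf7 were looked for by their markers. The 5 plasma cell markers summed to 7.68 CPM in WT and 5.83 in KO, with 1 of the 2 measured genes at least 1.5-fold lower (Igj, 59 and 75 reads, log2 ratio -0.60, and -0.38 with the trend removed), the other, Mzb1, at 17 and 35 reads (1.06-fold higher), and the receptor gene Tnfrsf17 at 0 in both. The 9 NK cell markers summed to 26.7 and 21.3 CPM. Among them Klrb1c (30 and 18 reads) and Nkg7 (142 and 113) were at least 1.5-fold lower and Eomes (43 and 145) at least 1.5-fold higher, the defining receptor gene Ncr1 had 3 and 7 reads, and Klra4 and Klra8 had none. Prf1 (94 and 197 reads) was 1.08-fold higher. Both sums were lower in the KO library, but the genes within each list went both ways. Of the 4 measured NK markers, 2 had a ratio below 0 and 2 above, and Nkg7 alone went from 11.9 to 4.88 CPM. The part of these cells in the Slamf7 ratio was not tested.

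Sh2d1a, the SAP gene, lies on the X chromosome (42502453 to 42529330, plus strand). It had 390 and 489 reads, or 32.6 CPM in WT and 21.1 in KO. Its level was 1.54-fold lower in the KO library (interval 1.35 to 1.77), and the Poisson intervals of the libraries did not overlap. Of all genes, 4.84% had a lower ratio. The GC content of its transcript was low at 41.9%, where the median log2 ratio was -0.15. With the trend removed, Sh2d1a went from -0.62 to -0.47, or 1.39-fold lower, and so under 1.5-fold. Its exons overlap those of Tenm1 on the opposite strand by 575 bases, and Tenm1 had 0 reads in WT and 1 in KO.

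Slamf6 encodes Ly108, a self-binding receptor that uses SAP and is abundant on resting and stem-like T cells. It is the last gene of the cluster (171917515 to 171953170, plus strand). The WT library had 1643 reads and the KO library 2246, that is 137 and 97.0 CPM. The level was 1.41-fold lower in the KO library, with an interval of 1.33 to 1.51 that reaches 1.5-fold. Its counting interval is the narrowest of the 3 lowest genes. It was at 1.35-fold lower with the trend removed.

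Ly9, which encodes CD229, a self-binding receptor known to restrain innate-like lymphocytes, had the most reads of the family. It had 3086 reads in WT and 4919 in KO, or 258 and 212 CPM, a level 1.21-fold lower (interval 1.16 to 1.27). Cd84 (171839697 to 171890718, plus strand), a self-binding receptor of T and B cells and platelets, had 2076 and 3363 reads, or 173 and 145 CPM, a level 1.19-fold lower (1.13 to 1.26). Slamf1 (171767127 to 171801184, plus strand), which encodes CD150, a self-binding receptor that signals through SAP, had 1385 and 2325 reads, or 116 and 100.4 CPM, a level 1.15-fold lower (1.08 to 1.23). As scaled, these 3 receptors thus had close ratios, each with libraries apart by more than counting error and less than 1.5-fold. The log2 ratios moved from -0.28 to -0.21 for Ly9, from -0.26 to -0.08 for Cd84 and from -0.20 to -0.09 for Slamf1 when the trend was removed. No counting interval was computed with the trend removed, so whether Cd84 and Slamf1 then differ by more than counting error is not shown. Cd84 has the lowest GC content of the 8 genes, 39.3%, and genes near it had a median of -0.17.

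Cd48 and Cd244 encode a ligand and its receptor. Cd48 (171682009 to 171705258, plus strand), which encodes a membrane-anchored protein found on most blood cells, had 1650 and 3022 reads, or 138 CPM in WT and 130.5 in KO. The KO level was 0.947 of the WT level (interval 0.892 to 1.01), a difference within counting error, and the sign of the log2 ratio turned from -0.08 to 0.06 with the trend removed. Cd244, whose product is chiefly a receptor of NK cells and CD8 T cells, had 33 and 64 reads, 2.75 and 2.76 CPM. The KO level was 1.00 of the WT level, but the interval of 0.649 to 1.58 also holds a 1.5-fold difference. The 2 CD8 T cell markers, Cd8a (74 and 143 reads) and Cd8b1 (328 and 818), summed to 33.6 and 41.5 CPM.

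Per length the order of the genes differed from that of their reads. Divided by the total length of the exons of coding transcripts, the scaled WT levels, as CPM per kilobase (RPKM), were 116 for Cd48, 94.1 for Ly9, 42.9 for Slamf1, 27.6 for Cd84, 21.4 for Sh2d1a, 18.6 for Slamf6, 2.70 for Slamf7 and 0.733 for Cd244. The order was the same in the KO library, from 110 for Cd48 and 77.6 for Ly9 to 0.735 for Cd244. The neighbours Sh2d1a and Slamf6 overlapped within counting error (19.3 to 23.6 and 17.7 to 19.5 in WT, 12.7 to 15.1 and 12.6 to 13.7 in KO). The order of Slamf1 and Cd84 rests on the length used: with the longest coding transcript, a choice made after seeing the data, Cd84 was at 50.5 and Slamf1 at 42.9 in the WT library. So the RNA of the ligand Cd48 was the most abundant in both libraries, and Cd244 RNA was scarce.

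The make-up of the family can be compared between the libraries without any scaling, as shares of its reads. Slamf6 took 15.8% of the reads of the 8 genes in WT and 13.5% in KO, with Clopper-Pearson intervals of 15.1 to 16.5 and 13.0 to 14.1. Sh2d1a went from 3.75% (3.39 to 4.13) to 2.95% (2.70 to 3.22), and Slamf7 from 1.42% (1.20 to 1.67) to 0.959% (0.816 to 1.12). Cd48 took the larger share in the KO library, 15.8% (15.2 to 16.6) against 18.2% (17.6 to 18.8). The shares of Ly9 were 29.6% and 29.7%, those of Cd84 19.9% and 20.3%, and those of Slamf1 13.3% and 14.0%, all with overlapping intervals. Beyond counting error, the genes therefore did not differ between these libraries by a common factor. The GC and length trend, which acts between genes, was not removed from these shares.

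All 28 pairs of genes were also compared by the ratio of their folds, which needs no scaling either but keeps the GC and length trend. The interval excluded equality in 16 pairs, with no adjustment for the number of pairs. Slamf6 was lower against Cd48 by 1.34-fold (1.23 to 1.46), against Slamf1 by 1.23-fold (1.12 to 1.35), against Cd84 by 1.19-fold (1.09 to 1.29) and against Ly9 by 1.17-fold (1.08 to 1.26). Sh2d1a was lower against Cd48 by 1.46-fold (1.26 to 1.69) and against Ly9 by 1.27-fold (1.10 to 1.47). Sh2d1a and Slamf6 did not separate (1.09-fold, 0.938 to 1.27), nor did Slamf7 and Sh2d1a (1.17-fold, 0.892 to 1.53). Among Ly9, Cd84 and Slamf1 no pair separated as counted, the widest being Ly9 and Slamf1 at 1.05-fold (0.971 to 1.14). With the trend removed their log2 ratios were -0.21, -0.08 and -0.09, and the pairs were not compared on that scale.

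The 7 genes other than Sh2d1a form 1 cluster on chromosome 1, 394 kb long, in the order Cd244, Ly9, Slamf7, Cd48, Slamf1, Cd84 and Slamf6. The whole of Ly9 (171588624 to 171607410, minus strand) lies inside the gene body of Cd244 (171559193 to 171609746, plus strand), with no exon in common. No other gene of the table lies between Cd244 and Slamf6. The table names Cd244 by an older symbol, which was matched to Cd244a through the RefSeq synonyms. RefSeq promoter windows of the build GRCm38.p6, from 250 bases before to 50 after a start site, were at hand for 6 of the 8 genes, and not for Ly9 and Sh2d1a. The windows of the 2 genes with the lowest ratios among these 6, Slamf7 and Slamf6, and of the 2 with the highest, Cd48 and Cd244, are printed below on the strand of the gene, with matches to 7 short motifs in capitals.
Slamf7, chr1:171648950-171649249, minus strand: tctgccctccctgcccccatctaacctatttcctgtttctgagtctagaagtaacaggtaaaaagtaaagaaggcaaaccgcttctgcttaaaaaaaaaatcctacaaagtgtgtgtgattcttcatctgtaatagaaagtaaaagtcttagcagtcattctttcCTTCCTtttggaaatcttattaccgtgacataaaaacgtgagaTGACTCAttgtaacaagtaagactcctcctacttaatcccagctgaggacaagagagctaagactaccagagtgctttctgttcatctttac
Slamf6, chr1:171917212-171917511, plus strand: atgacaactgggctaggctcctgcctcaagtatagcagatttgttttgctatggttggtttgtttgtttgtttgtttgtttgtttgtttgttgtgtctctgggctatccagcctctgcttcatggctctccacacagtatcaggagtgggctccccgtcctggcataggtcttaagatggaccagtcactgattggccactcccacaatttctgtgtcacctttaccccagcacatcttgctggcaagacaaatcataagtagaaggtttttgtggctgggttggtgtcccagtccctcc
Cd48, chr1:171681742-171682041, plus strand: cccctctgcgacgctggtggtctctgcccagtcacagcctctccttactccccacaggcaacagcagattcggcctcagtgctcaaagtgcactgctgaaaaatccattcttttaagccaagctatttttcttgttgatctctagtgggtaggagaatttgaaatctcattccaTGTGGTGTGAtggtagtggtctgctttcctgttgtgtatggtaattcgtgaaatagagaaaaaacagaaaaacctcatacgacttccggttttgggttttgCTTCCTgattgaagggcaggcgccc
Cd244, chr1:171558943-171559242, plus strand: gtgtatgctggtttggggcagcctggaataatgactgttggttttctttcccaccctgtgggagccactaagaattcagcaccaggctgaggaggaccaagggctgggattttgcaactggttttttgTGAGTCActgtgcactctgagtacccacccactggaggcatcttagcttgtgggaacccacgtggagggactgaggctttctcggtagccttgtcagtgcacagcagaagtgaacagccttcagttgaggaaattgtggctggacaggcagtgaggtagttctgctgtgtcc

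The motifs were searched on both strands in the 6 windows and in all 32851 promoter windows of the table. They were AGGAAG for ETS factors, TGTGGT for RUNX, TGTTTAC for forkhead factors, TGANTCA for AP-1, GGTGTGA for T-box factors, CTTTGAA for TCF/LEF and CAGGTG for an E-box. Slamf7 held an ETS match starting 85 bases before the RefSeq start site and an AP-1 match 42 bases before it. This window lies inside the Slamf7 gene body given above, whose 5' end is at 171653035, so the annotations differ on the start. Slamf6 held none of the 7. Cd48 held a RUNX match 76 bases and a T-box match 73 bases before the start site, which share letters, and an ETS match 26 bases into the transcript. The AP-1 letters were in Cd244 (122 bases before), Slamf7 and Cd84, 3 of 6 windows, beside 7.81% of all windows. The ETS letters were in 4 of 6 beside 35.4%, and the RUNX letters in 2 of 6 beside 16.8%. The T-box letters were in 1 of 6 beside 3.98%, the E-box letters in 1 of 6 beside 20.2%, the forkhead letters in 0 of 6 beside 3.65% and the TCF/LEF letters in 0 of 6 beside 5.14%. A match is a run of letters, and binding was not measured.

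**Figure D4:**
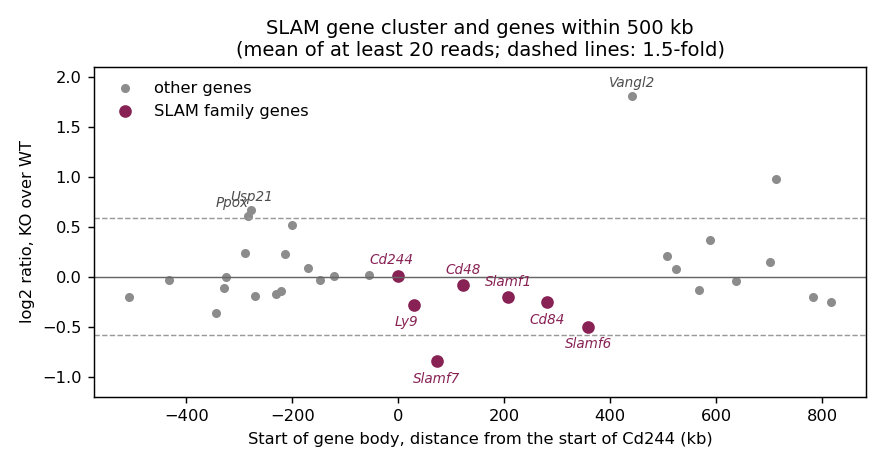
Log2 ratio of KO over WT against the distance of each gene body's lowest coordinate from that of Cd244, in kb, for the SLAM cluster (purple) and other genes within 500 kb with a mean of at least 20 reads (grey). The cluster lies between -0.84 (Slamf7) and 0.00 (Cd244), with Cd48 and Cd244 above 0 once the GC and length trend is removed, and Vangl2, Usp21 and Ppox are named among the 4 grey genes past the upper 1.5-fold line.

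The genes beside the cluster did not share the lower ratios. Within 500 kb on either side, 27 other genes had enough reads, of which none was at least 1.5-fold lower, 4 were at least 1.5-fold higher, and 13 had a ratio below 0. Their median log2 ratio was 0.01, as against -0.26 for the 7 genes of the cluster; it was again 0.01 with the trend removed, and the cluster was then at -0.09. Among the 4 higher genes were the planar polarity gene Vangl2, the first gene past Slamf6 (23 and 159 reads, 3.58-fold higher, interval 2.30 to 5.80), the deubiquitinase gene Usp21 (1.59-fold, 1.42 to 1.79) and the haem synthesis gene Ppox (1.53-fold, 1.22 to 1.94). With the trend removed Vangl2 was at 1.66 on the log2 scale, while Usp21 and Ppox were at 0.48 and 0.43, under 1.5-fold.

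The rest of the family and the EAT-2 genes had few reads. Slamf8 had 13 and 38 reads (1.51-fold higher without a pseudocount, interval 0.788 to 3.09) and Slamf9 10 and 21, both receptors of myeloid cells. Sh2d1b1, which encodes EAT-2, had 34 and 58 reads (1.13-fold lower, with the fold between 0.568 and 1.39 of WT), and its paralogue Sh2d1b2 had 0 in both libraries, which allows up to 3 reads in each (0.250 CPM in WT, 0.130 in KO). So the adaptor that the Slamf7 product uses was itself thinly counted in these cells.

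The genes listed for proteins that act downstream of the receptors and SAP all had ratios within 1.5-fold. Of 22 listed signalling genes, all measured, none was 1.5-fold higher or lower, 13 had a ratio above 0 and 9 below, and the median was 0.04. The kinase gene Fyn, which SAP recruits, had 7246 and 15677 reads, a level 1.12-fold higher in the KO library (1.09 to 1.15). Among the farthest from equality were Malt1 (log2 ratio -0.39), which encodes a protease of the pathway that activates NF-kappaB, the adaptor gene Dok2 (0.22) and the phosphatase gene Ptpn11 (-0.20), whose product competes with SAP for the receptor tails. As folds, Malt1 was 1.31-fold lower (1.23 to 1.39), farther from equality than Slamf1. Ptpn11 was 1.15-fold lower (1.08 to 1.22), about as far as Slamf1. With the trend removed Malt1 was at -0.33, Dok2 at -0.01 and Ptpn11 at -0.28. None of these reached the size seen for Slamf7, Sh2d1a or Slamf6.

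CD2, the T cell receptor for CD48 in mice, and its adaptors were close to equal. Cd2 had 8654 and 18229 reads, a level 1.09-fold higher in the KO library (1.06 to 1.12). The log2 ratios of the adaptor genes were -0.06 for Pstpip1, 0.04 for Cd2ap and 0.00 for Cd2bp2, and with the trend removed Pstpip1 was at -0.35. So the ligand CD48 and its T cell receptor CD2 both had ratios near 1.

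**Figure D5:**
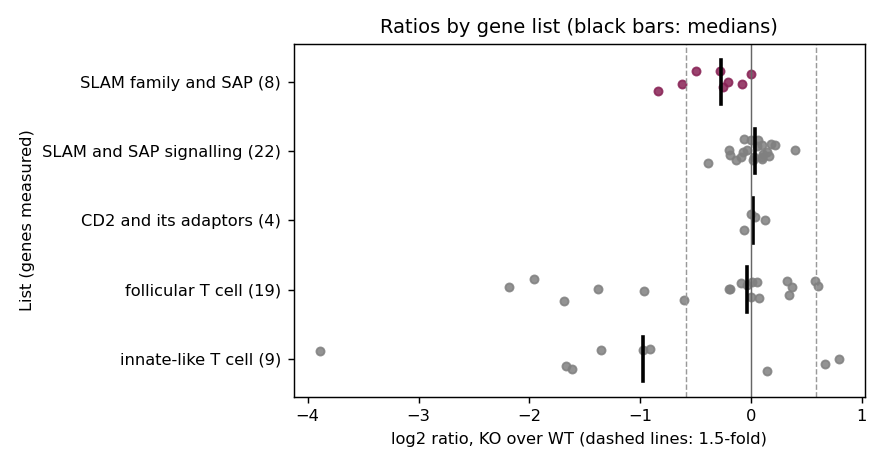
Log2 ratios of KO over WT for the 8 SLAM family and SAP genes (purple) and for the measured genes of 4 lists (grey), with the median of each as a black bar. Every gene of the signalling and CD2 lists lies inside the dashed 1.5-fold lines, and the follicular T cell list runs past -2.

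Several of these receptors are also abundant on B cells and myeloid cells, so the markers of such cells are given here for the whole family. The 10 B cell markers were all measured and summed to 172 CPM in WT and 138 in KO. Of them 3 were at least 1.5-fold lower (Cd79b, Ms4a1 and Cr2) and none higher, and with the trend removed 1 was lower. The 6 monocyte and macrophage markers summed to 241 and 226, with none past 1.5-fold. Dendritic cell markers summed to 20.7 and 26.5, neutrophil markers to 7.18 and 8.29 (with Ngp, 26 and 28 reads, 1.80-fold lower), mast cell and basophil markers to 8.85 and 9.89 and platelet markers to 2.50 and 2.37, with Mcpt4, Fcer1a, Gp9 and Gp1bb at 0 in both libraries. The B cell sum was lower in the KO library as the family's was, and its part in the ratios was not tested.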

How the data were processed

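Both libraries are RNA-seq of sorted Treg cells. Per the labels' protocols, mRNA was isolated on Dynabeads and libraries were made with a TruePrep kit. TopHat2 2.0.3, HTSeq and mm10 were used per the submitters' processing notes; annotation and strand setting are not stated. The authors deposited raw read counts per gene symbol, not normalized. HTSeq's 5 categories for reads outside genes did not enter library sizes; genes held 76.6% of entries in each.

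Counts were scaled by edgeR 4.0.16 TMM factors (1.03 for WT, 0.974 for KO) in R 4.3.3. Log2 ratios used a pseudocount of 1 on counts at the mean library size. Folds and their exact conditional 95% intervals used none. PCR reads without molecular identifiers are not independent, so intervals cover counting error only. DESeq2 1.42.0 gave size factors as an alternative; no test was run. A smooth trend of the ratio along GC content and length was fitted with mgcv 1.9.3 over 10853 genes (99.6% of those measured). Gene models were GENCODE M21 (GRCm38, the same assembly as mm10). The code was tested on simulated data.

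The 8 genes, the lists and the alternatives were chosen with earlier results of these data known. All 8 genes are named; from each list, and from the genes within 500 kb of the cluster, up to 4 measured genes with the largest absolute ratio are named where reported, and all of the small family and CD2 lists. Defining genes and those at 0 or past 1.5-fold among markers were named after seeing values. So were Fyn, Il6ra, Bcl6, Gata3, Eomes, Mzb1, Prf1, Prdm1, Zbtb16, Il17a, Tbx21 and Il18r1. The targeted gene and some others are not reported here.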

Additional observations from a re-analysis of the deposited data

How the results depend on the processing

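No paired analysis was possible because each group has 1 library, and for the same reason no replicate could be left out. Across DESeq2 size factors, total-read scaling, pseudocounts of 0.5 and 5 and removal of the GC and length trend, the log2 ratios of Slamf7 (-0.92 to -0.78), Sh2d1a (-0.70 to -0.47), Slamf6 (-0.58 to -0.43), Ly9 (-0.36 to -0.21), Cd84 (-0.33 to -0.08) and Slamf1 (-0.28 to -0.09) kept their sign. Cd48 (-0.16 to 0.06) and Cd244 (-0.07 to 0.08) changed sign. The count of genes at least 1.5-fold lower, 2 as scaled, was 1 with the trend removed, 0 at 2-fold, and 0 where the whole counting interval had to pass 1.5-fold. The median log2 ratio of the 8 genes, -0.27 as scaled, was -0.34 with total-read scaling and -0.15 with the trend removed. None of the 8 genes was 1.5-fold higher under any of these, while Slamf8, outside the 8, was past 1.5-fold higher with the trend removed (log2 ratio 0.60). Of the genes around the cluster, 2 and not 4 were at least 1.5-fold higher with the trend removed or with a mean of at least 100 reads, and 1 within 200 kb. With no floor beyond 1 read, 9 were higher and 3, not 0, lower. Depth limits Cd244 most, with 33 reads in the WT library.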

Other observations

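Past 1.5-fold, genes listed for follicular T cells, whose help to B cells depends on SAP, were mostly lower. Of 22 listed genes 19 were measured, with a median log2 ratio of -0.04, 11 ratios below 0 and 8 above. In KO 6 were at least 1.5-fold lower, 1 (Il6ra) at least 1.5-fold higher and 12 between. The shares over all genes were 5.51% lower and 7.43% higher. With the GC and length trend removed 5 were lower and none higher. Prdm1 (259 and 328 reads, 1.53-fold lower as scaled) was then under 1.5-fold. Il6ra was also under 1.5-fold with total-read scaling. The lowest were the transcription factor genes Maf (939 and 399 reads, 4.55-fold lower) and Tox2 (149 and 73 reads, 3.95-fold lower), the follicle homing receptor gene Cxcr5 (3.23-fold lower) and the costimulatory receptor gene Icos (2.61-fold lower). Bcl6, the factor that defines follicular T cells, had 530 and 1033 reads, and its level was 1.01 of WT (0.907 to 1.12).

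Of 14 genes listed for innate-like T cells, which need SLAM receptors and SAP to develop, 9 were measured. Of these 6 were at least 1.5-fold lower and 2 higher, where 5.51% and 7.43% of all genes were, and the median was -0.97. With a mean of at least 100 reads required, the counts were 1 lower and 1 higher, so most of these calls rest on few reads. The 2 higher genes were those of the transcription factors GATA3 (Gata3, 1040 and 3193 reads, 1.59-fold higher) and Eomes (43 and 145 reads, 1.74-fold higher). Among the lower genes were the cytokine gene Ifng (31 and 18 reads), the NK receptor gene Klrb1c (30 and 18 reads) and the chemokine receptor gene Cxcr6 (99 and 74 reads, 2.59-fold lower). Zbtb16, the factor that defines natural killer T cells, had 2 and 8 reads, and Il17a had none. Tbx21, Ifng, Cxcr6 and Il18r1 are also expressed by subsets of Treg cells, and the source of these reads was not tested.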
